A study of Mus musculus with 7 samples.

Results

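The transcripts described here encode 9 components and regulators of the complement system: C1ra, C1s, C4b, C2, C3, Cfb, Serping1, Cd55 and Cd59a. They were chosen by name, as every probe whose gene name in the array annotation is one of these, which gave 12 probes of the 55670 analysed and 9 gene names of 34792. Transcript levels came from 7 single-colour Agilent arrays, each given 250 ng of mouse total RNA labelled with Cy3. The study asked how cardiac mesenchymal progenitors (CMPs), adherent stromal cells grown out of heart tissue, compare when the tissue came from living mice or had been kept after death for 24 h at 4 °C. The cultures were made from adult mice of C57BL/6 background, 1 from atrial and 1 from ventricular tissue of each source, and all were grown on collagen I in DMEM/F12 with 10% serum and the growth factor bFGF at 40 ng/ml. The references were purchased adult heart RNA from Clontech (1 array, no strain or exact age in the labels) and fetal heart RNA of embryonic day 16.5. One fetal array was wild type, labelled B6 (C57BL/6). The other was of the line C57BL/6-Tg(Myh6-EGFP)MG2, in which the cardiomyocyte promoter of Myh6 drives the green fluorescent protein. Each CMP culture was thus 1 array of 1 combination of source and chamber, and nothing in the labels says that arrays of a group were separate animals or pools.

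Complement is a cascade of plasma proteins that tags surfaces for removal and can pierce membranes. In the classical pathway the recognition protein C1q carries the proteases C1r and C1s, which cleave C4 and then C2 to build an enzyme that splits C3, the step where all routes meet. The alternative pathway uses factor B with deposited C3 to split more C3. Host cells are protected by the C1 inhibitor Serping1, which blocks C1r and C1s, by decay accelerating factor (Cd55), which takes apart the C3-splitting enzymes, and by CD59, which stops the final pore. Most circulating complement is made in the liver, but fibroblasts, macrophages and other tissue cells make several components locally, and inflammatory cytokines are known inducers of C3 and factor B.

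Values are log2 processed signals minus the 75th percentile of the array, so 0 is that percentile and each unit is a 2-fold step. They compare the same probe across arrays and not one gene with another. On each array 46.5% to 52.5% of probes were well above background and 0 were saturated. The cultures fitted their label: the summed scaled signal of 11 stromal markers was 1996 to 2522 in CMPs against 669 in adult and 633 to 725 in fetal heart, and that of 11 cardiomyocyte markers was 1.47 to 17.4 against 8176 and 3376 to 5958. The postmortem atrial array stood apart: of 24878 genes, 4685 to 5295 were 2-fold or more away from each remaining culture, whereas pairs of those 3 were that far apart at 2402 to 2718. The p-values below measure the spread between these arrays, which may be technical. In bulk RNA, fewer cells of a type and less RNA per cell cannot be told apart.

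Some of the sequences behind the measurements are shown first. These probes, given 5′ to 3′, read C3, Cfb and Serping1, the components of the C3-splitting step and the inhibitor at the head of the cascade. The Cfb and Serping1 probes cover 357 and 1507 bases of genome with 60 bases of probe, so each crosses an intron and reads spliced RNA.
C3 second probe, chr17:57343678-57343737, minus strand, mm9: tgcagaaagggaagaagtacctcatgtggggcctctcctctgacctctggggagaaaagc
Cfb probe, chr17:34993502-34993858, minus strand, mm9: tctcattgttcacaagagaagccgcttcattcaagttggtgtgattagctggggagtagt
Serping1 second probe, chr2:84605968-84607474, minus strand, mm9: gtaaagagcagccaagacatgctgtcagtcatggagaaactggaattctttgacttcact
No probe of the 9 genes shared 20 bases or more with a probe of another gene name (0 such probes).

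The RefSeq table of promoters (GRCm38.p6) held 5 of the 9 genes: C3, C1s, C1ra, Cd55 and Cd59a. In the 250 bases before each start, both strands were searched for TTGCNNAA (the CCAAT/enhancer-binding protein motif), the interferon-stimulated response element (GAAA, any 2 bases, GAAA), TTCNNNGAA (STAT motif), GGGCGG (GC box) and the NF-kappaB motif. The promoters of C3, Cd55 and Cd59a are printed because these genes took different courses across the arrays described below, and capitals mark the matches.
C3, chr17:57228137-57228386, minus strand: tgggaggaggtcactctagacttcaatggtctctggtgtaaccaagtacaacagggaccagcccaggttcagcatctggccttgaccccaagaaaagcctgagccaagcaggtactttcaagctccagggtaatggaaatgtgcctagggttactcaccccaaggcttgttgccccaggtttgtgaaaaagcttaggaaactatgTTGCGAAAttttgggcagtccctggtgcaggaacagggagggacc
Cd55, chr1:130462745-130462994, minus strand: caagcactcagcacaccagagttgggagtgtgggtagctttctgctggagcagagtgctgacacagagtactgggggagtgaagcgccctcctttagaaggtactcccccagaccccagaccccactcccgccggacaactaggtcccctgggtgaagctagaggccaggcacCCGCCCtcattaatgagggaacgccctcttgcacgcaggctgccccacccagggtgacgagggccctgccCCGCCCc
Cd59a, chr2:104095551-104095800, plus strand: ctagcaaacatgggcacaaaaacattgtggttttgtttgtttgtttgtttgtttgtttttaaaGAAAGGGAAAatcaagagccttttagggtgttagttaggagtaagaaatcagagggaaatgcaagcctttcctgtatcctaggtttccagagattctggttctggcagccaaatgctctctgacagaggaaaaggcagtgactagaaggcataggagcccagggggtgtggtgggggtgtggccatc
The C3 window holds TTGCGAAA beginning 45 bases before the start, and 9.56% of all 32851 promoters hold a TTGCNNAA match. The Cd55 window holds the GC box on the opposite strand at 77 and 7 bases before the start, a motif in 32.7% of promoters. The Cd59a window holds GAAAGGGAAA at 187 bases before the start, a form of the interferon element, which 2.98% of promoters hold. The first of the C1s starts has a TTGCNNAA match on the opposite strand 242 bases upstream, and the C1ra window has no match to any of the motifs. The STAT motif (7.02% of promoters) and the NF-kappaB motif (7.25%) are in none of these windows. A match describes the letters and is not evidence of a bound factor.

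**Figure D1:**
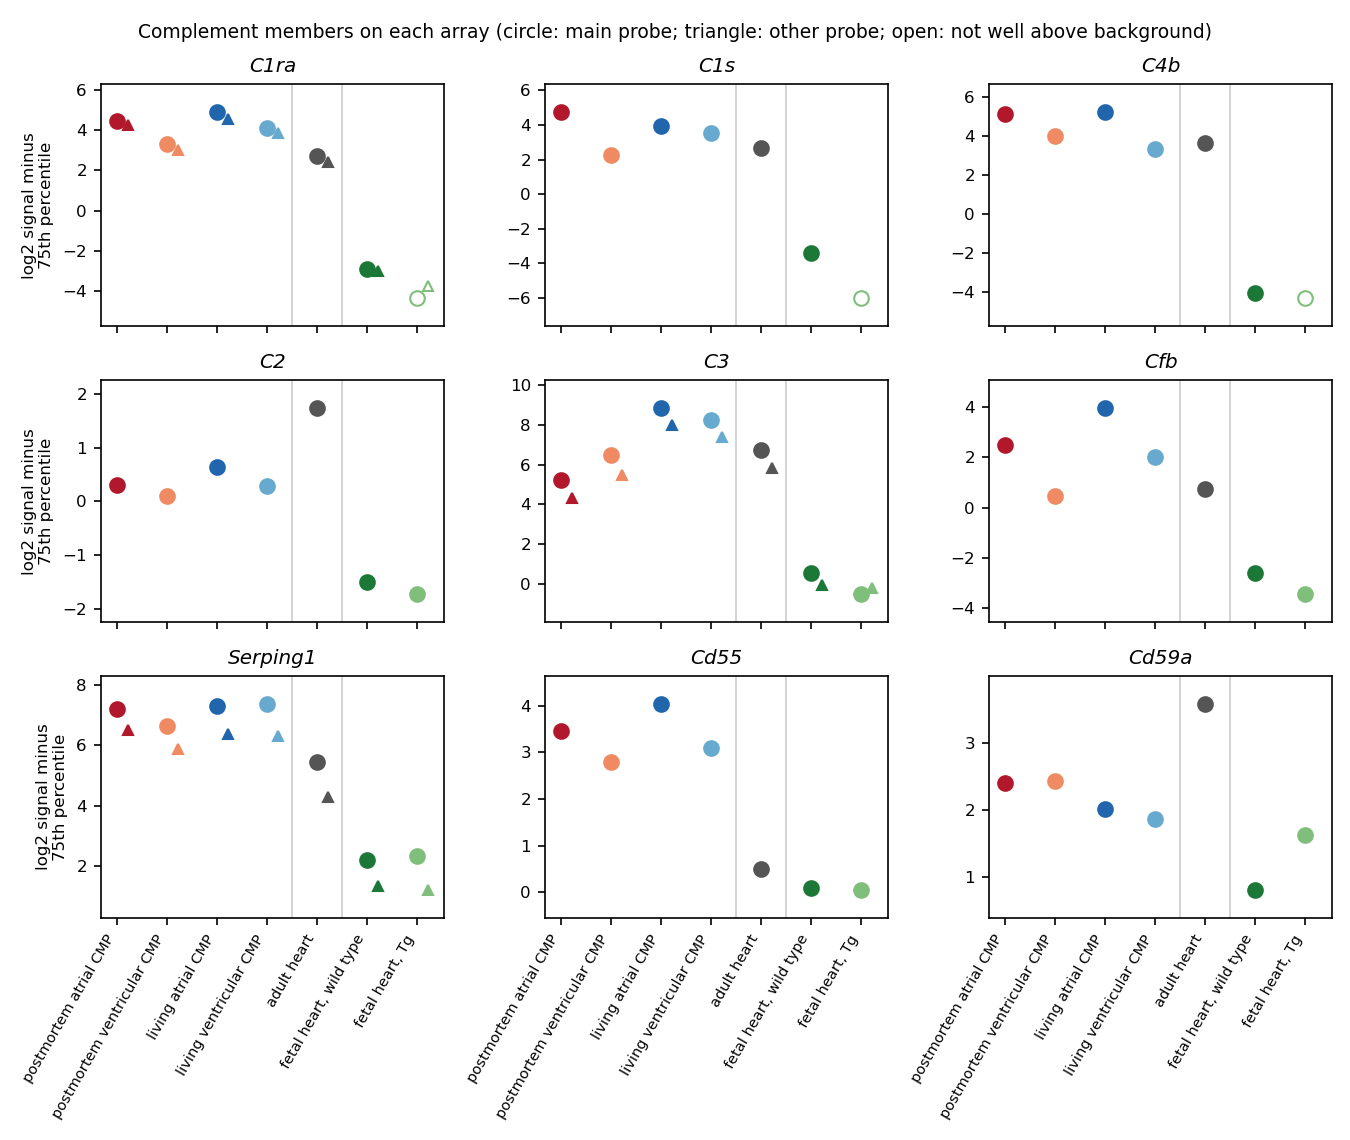
Level of each complement gene on the 7 arrays, as log2 signal minus the array's 75th percentile, 1 panel per gene with its own axis. Circles are main probes, triangles the other probe of C1ra, C3 and Serping1, and open symbols were not well above background. The 2 fetal arrays are lowest in all 9 panels, and only for Cd55 does the adult heart (0.50) lie close to them (0.05 and 0.10).

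The proteases that open the classical pathway were abundant in every culture and close to background in fetal heart. C1ra, which activates C1s, had log2 signals of 4.43 and 3.34 in postmortem atrial and ventricular CMPs, 4.89 and 4.09 in living atrial and ventricular CMPs, 2.70 in adult heart, and -2.92 and -4.35 in wild-type and transgenic fetal heart. All 4 cultures lay above adult heart, and the transgenic fetal array was not well above background. C1s, which cleaves C4 and C2, had values in the same order of arrays of 4.72, 2.26, 3.96, 3.53, 2.69, -3.39 and -6.01. Postmortem ventricular CMPs were the lowest culture and lay below adult heart, and the transgenic fetal array was again not well above background.

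C1ra and C1s lie beside each other on chromosome 6 between C1rl and the copies C1rb and C1s2 in the RefSeq gene order. The C1ra probe is at chr6:124473052-124473111 and the C1s probe at chr6:124480775-124480834 (mm9). The array's C1s is the gene now named C1s1, and its Gm5077 is C1s2. Gm5077 followed C1s within 0.14 in every culture, with 4.72, 2.33, 4.10 and 3.64, although the 2 probes share no run longer than 7 bases. Whether either probe also binds RNA of the other copy was not tested, so each is uncertain as a measure of 1 copy alone. C1rb, with 1.56, -0.17, 1.31 and 0.45 in the cultures, ran in the same order of cultures as C1s.

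C4b and C2, the substrates of C1s, sit near Cfb in the class III region of the major histocompatibility complex on chromosome 17. C4b, whose cleaved product attaches to the target surface, read 5.10, 3.99, 5.20, 3.33, 3.61, -4.05 and -4.33 in the order above (chr17:34865328-34865387). Both atrial cultures lay above both ventricular cultures and above adult heart, which lay between the ventricular ones. C2, the protease partner of C4b, read 0.30, 0.10, 0.64, 0.29, 1.73, -1.50 and -1.72 (chr17:34999575-34999634). Its cultures lay within 0.54 of one another, below adult heart and above fetal heart. The C4b probe may also read the near copy C4a, which was not analysed here.

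C3 varied most among the cultures. Its main probe, at chr17:57343416-57343475, read 5.21 and 6.48 in postmortem atrial and ventricular CMPs, 8.82 and 8.23 in living ones, 6.71 in adult heart, and 0.54 and -0.50 in fetal heart. The range over the cultures was 3.61, both postmortem cultures lay below adult heart and both living cultures above it. Its second probe, printed above, had values of 4.32, 5.49, 7.97, 7.36, 5.82, -0.03 and -0.17, in the same order of cultures. Cfb, the protease of the alternative pathway, read 2.47, 0.47, 3.95, 2.01, 0.72, -2.59 and -3.44. Living atrial CMPs had the highest Cfb and postmortem ventricular CMPs the lowest, the latter just below adult heart.

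Serping1, the C1 inhibitor, was among the steadiest members in culture. Its main probe (chr2:84605663-84605722) read 7.22, 6.65, 7.31 and 7.36 in the cultures, 5.45 in adult heart, and 2.21 and 2.34 in fetal heart. Its second probe read 6.52, 5.86, 6.39, 6.31, 4.30, 1.35 and 1.21. On both probes postmortem ventricular CMPs were the lowest culture, and all cultures lay above both hearts.

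The membrane regulators parted from each other. Cd55 (chr1:132335716-132335775) read 3.46, 2.80, 4.03 and 3.1 in the cultures, 0.50 in adult heart, and 0.10 and 0.05 in fetal heart, so that the hearts lay together far below the cultures. Cd59a (chr2:103954688-103954747) read 2.39, 2.43, 2.01 and 1.86 in the cultures, 3.57 in adult heart, and 0.80 and 1.62 in fetal heart, so that adult heart was highest. Each has a close copy beside it, named Daf2 and Cd59b on the array. Daf2 read 2.78, 1.22, 3.81 and 2.35, so that the cultures fell in the same order as for Cd55, from living atrial down to postmortem ventricular CMPs. Cd59b read -3.29, -2.68, -2.20 and -1.94, with the living cultures higher, the opposite of Cd59a. Probes of the copies share at most 6 bases in a row, and binding of one copy's RNA by the other's probe was not tested.

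Against fetal heart, all 9 genes were higher in CMPs (limma, 4 arrays against 2, Benjamini-Hochberg adjusted p under 0.05), where 22.8% of the 20044 genes tested were called higher. Among the 6 genes well above background on all 7 arrays, C3 had the largest difference, 7.17 ± 0.46 on the log2 scale (SE, adjusted p = 0.000307). Cfb was higher by 5.24 ± 0.29, Serping1 by 4.86 ± 0.18, Cd55 by 3.27 ± 0.16 and C2 by 1.94 ± 0.21. The smallest difference of the 9 was that of Cd59a, 0.96 ± 0.26 (adjusted p = 0.0285), which was 0.55 (adjusted p = 0.0768) without the wild-type fetal array. The median over the 9 genes was 5.24, against -0.01 over all genes tested.

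C4b, C1s and C1ra were not well above background on the transgenic fetal array, passed the filter on dim probes through the CMP side alone and so had to differ to be tested. Their fitted differences were 8.60 ± 0.22, 8.32 ± 0.79 and 7.82 ± 0.41, and they depend on how background is treated: with normexp correction they were 6.58, 5.34 and 5.99, all below the 6.87 of C3. Cfb, low in fetal heart but above background, moved from 5.24 to 3.87. All 9 calls remained with normexp. Under a filter that asks for both sides above background the 6 other genes were tested, and all 6 kept their call. Over the alternatives that kept all arrays, 7668 to 10119 of all genes were called, higher or lower. The share of all genes under this filter alone is not given here. The CMP arrays lay in one row of the slide and the heart arrays in the other, so slide row and the comparison of cultures with hearts cannot be told apart.

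**Figure D2:**
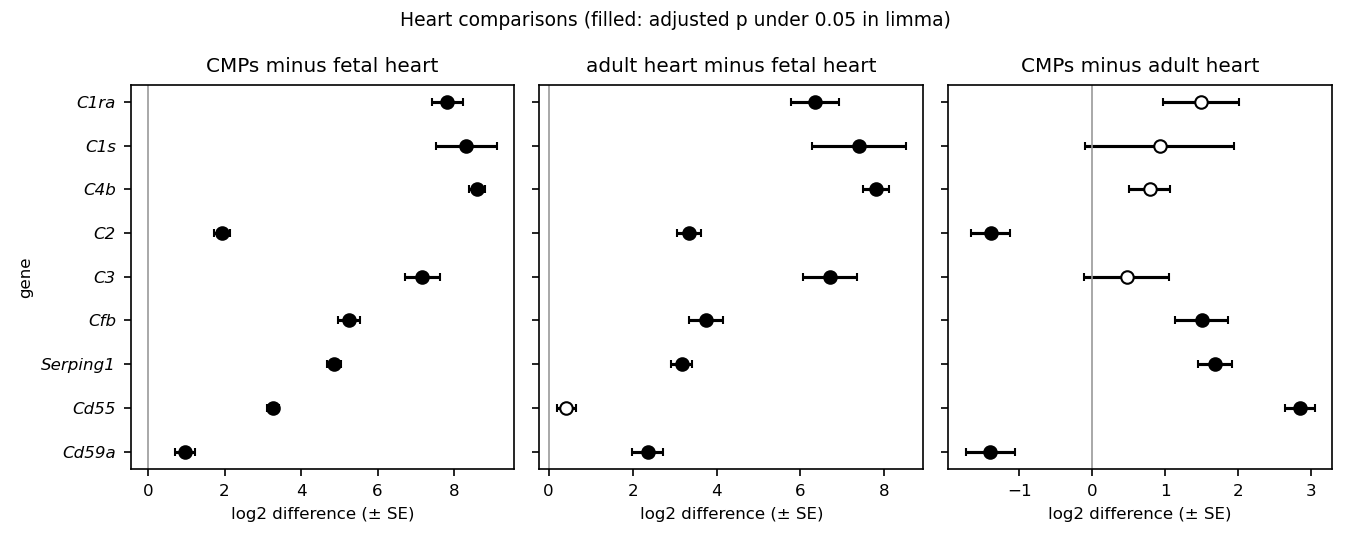
Log2 differences (points) ± SE (bars) from limma for the 9 genes in the comparisons of the 4 cultures with adult heart (1 array) and with fetal heart (2 arrays), and of the hearts with each other, 1 panel per comparison with its own axis. Filled points had an adjusted p under 0.05: 9 genes against fetal heart, 8 in adult against fetal heart, and 5 in CMPs against adult heart, of which C2 and Cd59a were lower.

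In adult heart 8 of 9 genes were higher, against 18.8% of the 20936 genes tested (limma, 1 array against 2, with the spread of the adult array taken from the others). The fetal arrays are the same as in the comparison above. C3 was higher by 6.69 ± 0.64 (adjusted p = 0.00204). The differences of Cfb, C2 and Serping1 were 3.74 ± 0.40, 3.34 ± 0.29 and 3.17 ± 0.26, and that of Cd59a was 2.36 ± 0.37 (adjusted p = 0.00741). Cd55 was the exception at 0.42 ± 0.22 (adjusted p = 0.189). C4b, C1s and C1ra entered through the adult array alone, with fitted differences of 7.80 ± 0.31, 7.39 ± 1.12 and 6.33 ± 0.57. With normexp these were 5.69, 4.34 and 4.41, C3 was 6.28 and Cfb 2.40. With both sides required to be above background, 6 genes could be tested, and no call among them changed. The share of all genes called under that filter is not given here.

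The fetal arrays differed from each other too, with 7 of 9 genes higher in the wild type on the main probes. The transgenic minus wild-type difference was -1.04 for C3, -0.85 for Cfb and 0.82 for Cd59a. C1s and C1ra, at -2.62 and -1.43, were not well above background on the transgenic array, so these sizes are uncertain. The second probes gave smaller differences, -0.14 for C3 and -0.74 for C1ra, and for Serping1 -0.14 where the main probe gave 0.13. Liver transcripts moved alongside: all 11 hepatocyte and plasma markers were well above background on the wild-type fetal array and 5 on the transgenic one, with summed scaled signals of 14.0 and 1.72. Albumin read 1.86 on the wild-type array and -6.03 on the transgenic one. Their part in the complement levels was not tested. Both fetal arrays lay below every culture for each of the 9 genes, as they did for 30.2% of all genes.

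Compared with adult heart, 3 of 9 genes were called higher in CMPs and 2 lower, where 24.6% of the 20270 genes tested were called higher and 24.6% lower (limma, 4 arrays against 1). These shares are near those of all genes, and the spread of the single adult array was taken from the other groups. Cd55 was higher by 2.85 ± 0.20 (adjusted p = 0.00055), Serping1 by 1.69 ± 0.23 (adjusted p = 0.0031) and Cfb by 1.5 ± 0.37 (adjusted p = 0.0203). C2 was lower, at -1.40 ± 0.27 (adjusted p = 0.00898), and so was Cd59a, at -1.40 ± 0.34 (adjusted p = 0.0189). C1ra at 1.49 ± 0.52 (adjusted p = 0.0615) and C4b at 0.79 ± 0.28 (adjusted p = 0.0631) missed the threshold, and C1s at 0.93 ± 1.02 and C3 at 0.47 ± 0.59 differed by less than their standard errors.

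Several of these calls turned on a setting. Scaling to the array median moved the median of all genes by 0.59, called C4b (1.38) and C1ra (2.08) higher, and left C2 and Cd59a at -0.81 with adjusted p = 0.0585 and 0.065. Without a chamber term Cfb had an adjusted p = 0.248. Leaving out 1 array also moved calls, though a fit that lacks a culture takes its spread from the fetal pair alone. Without the postmortem atrial or the living ventricular array C3 (0.94), C4b (0.98) and C1ra (1.41) were called too, and without the postmortem ventricular or the living atrial array C1s (1.44) and C1ra (1.56) were. C1ra (1.49) was also called without either fetal array.

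Macrophages are another source of complement in heart tissue. Of 14 macrophage and leukocyte markers, 6 to 8 were well above background in a culture, with a summed scaled signal of 8.19 to 11.4, against 138 in adult heart (14 markers) and 35.5 to 35.7 in fetal heart (13 markers each). Csf1r, Cd68, Cd14, Lyz1 and Lyz2 were well above background in all 4 cultures, with Csf1r, the macrophage growth factor receptor, at 1.61 to 2.29 there and 5.40 in adult heart. Tyrobp and Ctss were above background in 3 cultures, and the pan-leukocyte Ptprc in living ventricular CMPs. Emr1, Mrc1, Aif1, Laptm5, Fcgr1 and Cd163 were not above background in any culture. The part of macrophages in the complement values was not tested.

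The central comparison of the study, postmortem against living CMPs, gave 0 calls among the 9 genes, with 0.105% of 19007 genes called in all (20 genes, limma, 2 arrays against 2). At an unadjusted p under 0.05 there were 2 of 9 genes, C3 and Cfb, against 11% of all genes. C3 had a difference of -2.68 ± 0.53 (adjusted p = 0.238), and its postmortem arrays did not overlap with the living ones. It was -3.61 in the atrial pair and -1.75 in the ventricular pair, and its second probe gave -3.64 and -1.87. Cfb had a difference of -1.51 ± 0.33 (adjusted p = 0.258), nearly equal in the pairs at -1.48 and -1.54.

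The other genes differed less between the sources. Cd55 differed by -0.44 ± 0.18 (adjusted p = 0.461), C1ra by -0.60 ± 0.47, Serping1 by -0.40 ± 0.21 and C2 by -0.27 ± 0.24. C4b at 0.28 ± 0.25 and C1s at -0.25 ± 0.92 had opposite signs in the chambers. Cd59a was the member with the higher mean in both postmortem cultures, by 0.47 ± 0.30. On the second Serping1 probe the difference was -0.16, made up of 0.13 (atrial) and -0.44 (ventricular).

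In all, 7 of 9 genes had the lower mean in postmortem CMPs, with a median of -0.40 against 0.01 over all genes, where 49.3% of genes had the lower mean. Lower in both chamber pairs were 6 of 9, against 30.2% of all genes, and higher in both was 1 of 9, against 33.6%. The arrays did not overlap for 2 genes that were lower (C3 and Serping1, background 20.1%) and 1 that was higher (Cd59a, background 23.9%). These counts use the main probes, and on its second probe Serping1 overlapped and had opposite signs in the pairs. Endothelial markers also had the lower mean in postmortem CMPs, 8 of 8 with a median of -1.0 and 0 calls, through the atrial pair. In the ventricular pair all of these markers but Kdr were higher in the postmortem culture, such as Vwf at -0.89 against -2.43. Their summed scaled signal was 9.85 to 12.2 in postmortem and 13.2 to 19.1 in living CMPs, and their part in the complement values was not tested.

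Leaving out 1 culture leaves 1 array against 1 for the sources. The C3 difference was then that of the remaining pair, -1.75 without either atrial array and -3.61 without either ventricular array. For Cfb it was -1.48 without either ventricular array. Such fits hold no replicate culture and take their spread from the fetal pair alone. Their p-values are therefore not a check on the comparison of all cultures.

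**Figure D3:**
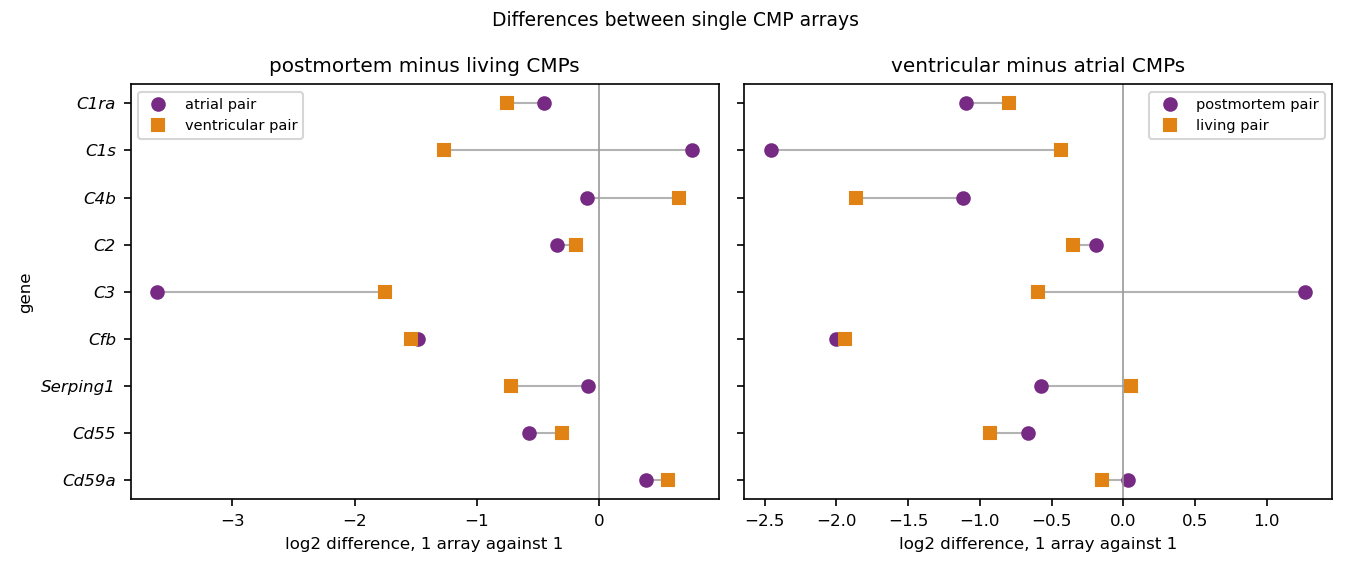
Differences between single CMP arrays in log2 units for each complement gene. The left panel gives postmortem minus living in the atrial pair (circles) and the ventricular pair (squares), and the right panel gives ventricular minus atrial in the postmortem pair (circles) and the living pair (squares). C3 has the largest left-hand differences, -3.61 and -1.75, and Cfb the closest agreement between pairs among the large ones, -1.48 and -1.54 on the left and -2.0 and -1.94 on the right.

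Inflammatory and acute phase genes moved beside C3 and Cfb. Of 26 such genes 22 were tested, 0 were called, and all 22 had the lower mean in postmortem CMPs, with a median of -1.26. Their summed scaled signal was 552 to 995 in postmortem CMPs, 1975 to 2085 in living CMPs, 142 in adult heart and 53.5 to 59.5 in fetal heart. Interleukin 6, a cytokine that induces acute phase proteins, read -0.29 and 3.55 in postmortem and 5.07 and 5.95 in living cultures. Of the hepatocyte and plasma list 4 were tested, of which Serpina1a, Ahsg and Apoh had the higher mean in postmortem CMPs and haptoglobin (Hp) the lower, with 0 calls and a median of 1.62. Of 19 interferon-response genes, 14 had the lower mean in postmortem CMPs, with a median of -0.49 and 0 calls. Their summed scaled signal was 134.4 in postmortem atrial and 453.5 in postmortem ventricular CMPs, against 297.6 and 359.3 in the living ones. Most of them were thus lower in the atrial pair but higher in the postmortem culture of the ventricular pair. Between chambers both lists leaned away from Cfb and most complement genes: 16 of 22 inflammatory genes (median 0.58) and 17 of 19 interferon genes had the higher mean in ventricular CMPs, with 0 calls. Whether these genes and complement differ for a common reason was not tested.

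Between chambers the genes leaned towards the atrial cultures. No gene of the 18906 tested passed the threshold (0%, limma, 2 arrays against 2), and 1560 genes, or 8.25%, had an unadjusted p under 0.05, among them 3 of the 9: Cfb, C4b and Cd55. Cfb differed between ventricular and atrial CMPs by -1.97 ± 0.33 (adjusted p = 0.197), C4b by -1.49 ± 0.25 (adjusted p = 0.197) and Cd55 by -0.80 ± 0.18 (adjusted p = 0.329). The values of C1s and C1ra were -1.45 ± 0.92 and -0.94 ± 0.47. For C2, Serping1 and Cd59a they were -0.27 ± 0.24, -0.26 ± 0.21 and -0.06 ± 0.30, and for C3 0.34 ± 0.53.

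In all, 8 of 9 genes had the lower mean in ventricular CMPs, with a median of -0.80 against 0.03 over all genes, where 45.5% of genes had the lower mean. For 6 of 9, C1ra, C1s, C4b, C2, Cfb and Cd55, both ventricular arrays lay below both atrial arrays, against 14.9% of all genes. C2 was nearly tied, with 0.293 in living ventricular and 0.295 in postmortem atrial CMPs. The same 6 genes were lower in the postmortem and in the living pair, against 26% of all genes. C3, Serping1 and Cd59a had opposite signs in the postmortem and the living pair.

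These values too depended on single arrays. Without either postmortem array the fit gave the living pair by itself, with -1.94 for Cfb and -1.86 for C4b. Without either living array it gave the postmortem pair, with -2.0 for Cfb, -2.46 for C1s and 1.27 for C3. Here too 1 array stood against 1, with the spread taken from the fetal pair. The C3 difference was -0.59 in the living pair and 1.27 in the postmortem pair. The summed signal of cardiomyocyte markers was 16.7 and 17.4 in the postmortem and living atrial cultures and 6.94 and 1.47 in the ventricular ones, led by Tnnt2 at 4.02 and 4.10 in the atrial and 2.73 and 0.11 in the ventricular cultures, while Actc1 and Pln were not well above background in any culture. The part of such cells in the chamber differences was not tested.

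An interaction term asked if the postmortem difference varied by chamber. Each of its 4 levels is 1 culture, and only the 2 fetal arrays give it a spread, assuming that cultures vary like fetal hearts. That spread was in effect pooled over genes of similar signal, not taken from each gene. C1s was not well above background on 1 of those fetal arrays, which differed by -2.62, a gap that its SE does not carry. C1s was called, 1 of 9 genes against 2.41% of all genes, with a ventricular minus atrial difference of -2.02 ± 0.62 (adjusted p = 0.0469). It was higher in postmortem than living atrial CMPs by 0.76 and lower in postmortem ventricular CMPs, at -1.26. C3 had 1.86 ± 0.58 (adjusted p = 0.0561), with the larger postmortem difference in the atrial pair. With quantile normalization C1s kept its size at -1.97 with adjusted p = 1, and with normexp background correction C3 was called at 1.91 (adjusted p = 0.0217).

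Other genes of the pathway were taken from a list of 53 names, of which 48 are on the array. Some of the names not found are on it under older ones, C5 as Hc, Cd55b as Daf2, C5ar2 as Gpr77 and C1s2 as Gm5077. Called higher in CMPs than in fetal heart were 9 of 26 tested and lower 8, where 22.8% and 25.2% of all genes were. Against adult heart 5 of 33 were higher and 15 lower, beside 24.6% each way over all genes. In adult against fetal heart 16 of 33 were higher and 2 lower, beside 18.8% and 18.2%. These heart counts include genes that passed the filter through 1 side alone and so had to differ to be tested. Examples are Cfd, Masp2, Vsig4, Itgax and Vtn, which entered through the adult array alone, both against the cultures and against fetal heart. No excess is read from these counts. Within the cultures 0 were called. At an unadjusted p under 0.05 there were 9 of 25 tested between sources (11% of all genes) and 6 of 23 between chambers (8.25%). Both counts include genes that passed the filter on dim probes through 1 side alone, among them Masp1, C8a and Fcna between the sources. Such genes had to differ to be tested, so no excess is read from these counts.

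The recognition protein C1q stood opposite to the C1 proteases. C1qa, C1qb and C1qc, its subunits, were lower in CMPs than in adult heart, by -8.13 ± 1.12, -5.02 ± 0.37 and -7.42 ± 0.76, and lower than in fetal heart, by -5.25 ± 0.87, -3.02 ± 0.28 and -5.27 ± 0.59. C1qa and C1qc were well above background in only 2 of the 4 cultures and were tested through the heart side, so their sizes are uncertain, while C1qb was above background on all arrays. Properdin (Cfp), which steadies the alternative C3-splitting enzyme, was lower than in adult heart by -3.58 ± 0.32. Factor D (Cfd), the protease that activates factor B, was not well above background in any culture and was at least 49.1-fold lower than in adult heart.

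Factor I (Cfi), which degrades C3 and C4 fragments, was higher in CMPs than in adult heart by 3.97 ± 0.59, although postmortem atrial CMPs read only -0.80 against 1.52 to 2.58 in the other cultures. Daf2 was higher than in adult and fetal heart by 3.15 ± 0.24 and 4.27 ± 0.19. Clusterin and vitronectin, which bind the forming pore, were lower than in adult heart, Clu by -3.42 ± 0.59 and Vtn at least 87.2-fold.

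C1rl, a relative of C1r, was higher than in fetal heart by 4.27 ± 0.22 and C1rb at least 34.6-fold. The receptors Vsig4 and Itgax of macrophages and dendritic cells were at least 23.2-fold and 30.5-fold lower in CMPs than in adult heart. The call of Itgam (2.43 ± 0.28 against fetal heart) is uncertain, since its brightest probe shares 20 bases or more with probes of other gene names and its other probes are dim. Susd4, an inhibitor of the C3-splitting enzyme, was lower in CMPs than in fetal heart by -6.60 ± 0.49, an uncertain size since only 1 of the 4 cultures was above background. The scavenger receptor Colec12 was higher than in adult heart by 2.89 ± 0.48.

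Cd93, a receptor of endothelial and myeloid cells, read 0.36, 2.96, 3.48 and 2.24 in the cultures, below adult heart (5.31) and fetal heart (5.45 and 6.18). The C1q-binding protein C1qbp, found mainly in mitochondria, lay within 4.64 to 4.73 in the cultures and was lower than in adult heart by -1.80 ± 0.21 and than in fetal heart by -1.53 ± 0.17. The secreted C1q relative C1qtnf1 was higher in CMPs than in either heart, by 1.30 ± 0.22 and 1.87 ± 0.17. Fcna, a ficolin of the lectin pathway, and C8g, a chain of the pore component C8, were lower than in adult heart by -3.52 ± 0.51 and -0.997 ± 0.30, and the lectin pathway protease Masp2 at least 7.54-fold. Fcna was above background in 2 of the 4 cultures, so its size is uncertain.

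The membrane inhibitor Cr1l read 3.81, 4.17, 3.91 and 3.95 in the cultures, 4.05 in adult heart and 3.18 and 3.62 in fetal heart. Hc, which encodes C5, read -1.86, -2.11, -2.93 and -3.69 in the cultures and -2.25 and -3.69 in fetal heart, so that cultures and fetal heart overlapped. In adult against fetal heart Cfi and Susd4 were lower, by -3.52 ± 0.65 and -3.58 ± 0.69. Csmd1, a membrane regulator, was uneven in culture, with 0.66 in postmortem atrial CMPs and -2.27, -3.56 and -2.40 in the others.

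Between the sources, among genes measured on both sides, the largest value was that of the lectin Colec11, a recognition protein of the lectin pathway, with 3.83 and 3.02 in postmortem and 0.61 and 0.53 in living CMPs, a difference of 2.86 ± 0.33 (adjusted p = 0.0844). Masp1, a protease of the same pathway, was, among the cultures, well above background in the postmortem ones only and was at least 8.62-fold higher there (adjusted p = 0.163), a gene tested through that side alone. Its other 2 probes were not above background in any culture and had differences of -0.28 and -0.41, so the Masp1 value is uncertain. C8a, a chain of C8, was likewise above background only in the postmortem cultures and at least 1.5-fold higher (adjusted p = 0.258). Its other probe was not above background on any array and had a difference of -0.28, so the C8a value is uncertain. Clu had -2.38 ± 0.53 (adjusted p = 0.258). These 4 were chosen after their values were seen, as the largest fitted differences of the list.

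**Figure D4:**
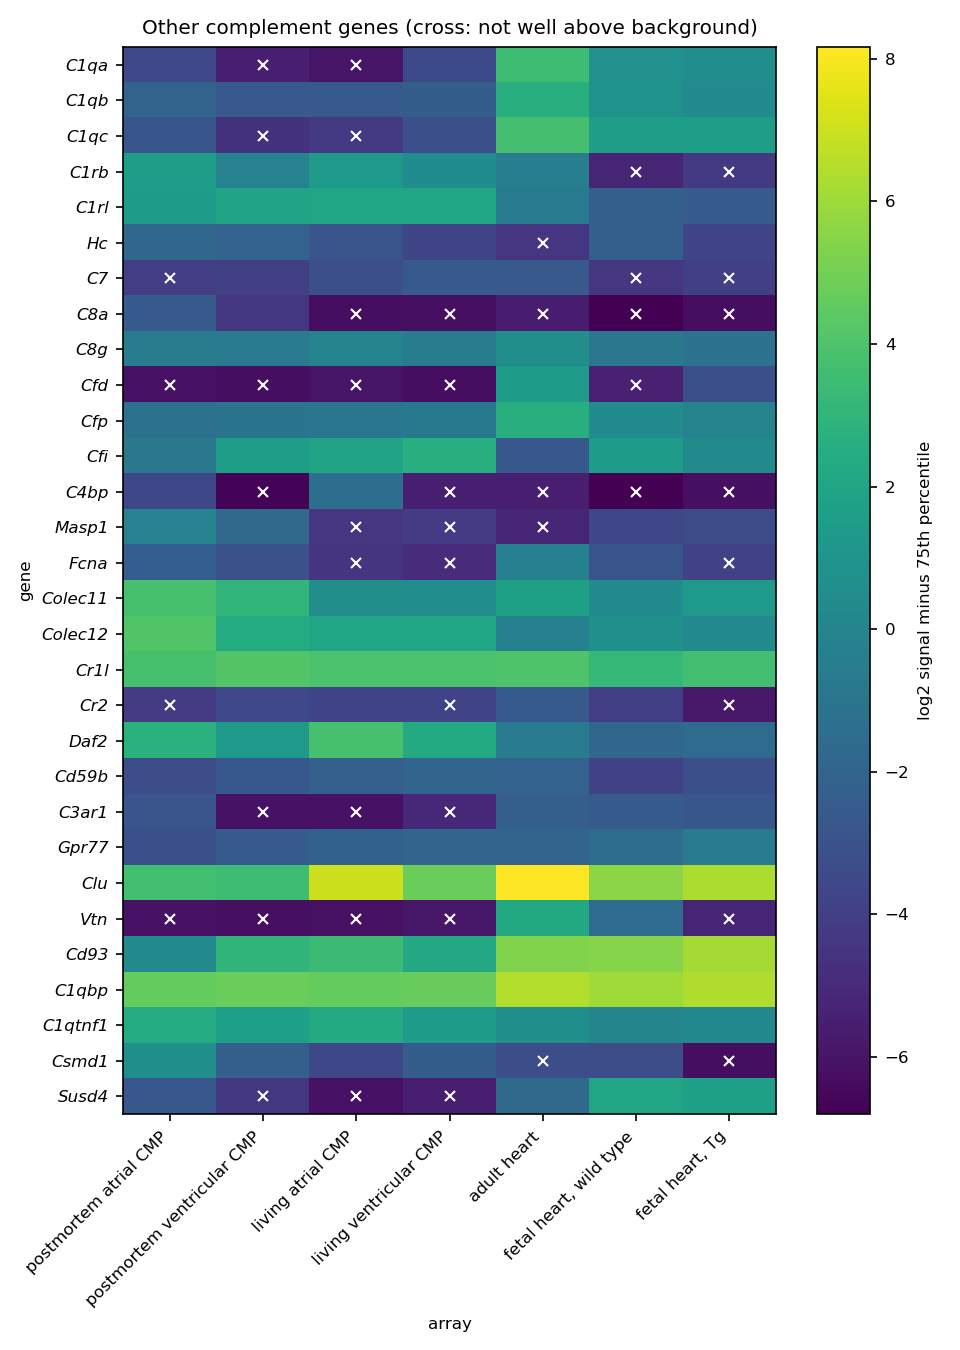
Levels on the 7 arrays of 30 other complement genes, each well above background on at least 2 arrays. Colour gives log2 signal minus the array's 75th percentile, and a cross marks a probe not well above background. C1qa, C1qb and C1qc are dark in the cultures and bright in adult heart, and Colec11 is brighter in the postmortem cultures (3.83 and 3.02) than in the living ones (0.61 and 0.53).

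Across the 7 arrays the genes with the pattern most like each member were found among 19102 gene names, by Pearson's r as a description, where cultures and hearts share the large step that drives r. Nearest to C1s was Gm5077 (r = 0.999), which also led for C1ra (0.993). Nearest to C3 were Ccdc159 and Sdr42e1 (both r = 0.993) and Irf1 (r = 0.986), a transcription factor of interferon responses. Serping1 was closest to AK141540 (0.998), Cp (0.997), the ferroxidase ceruloplasmin, and Tnip2 (0.997), and Cfb to Sirpa (0.993), Steap4 (0.979) and Gm5478 (0.977). C4b was nearest to Nbr1, Sncg and Plekhf1 (0.994 to 0.995), and C2 to Trip10, Scp2 and Eif2c4 (0.987 to 0.991). Cd55 was nearest to an unnamed probe, Arid5b and Ssh3 (0.992 to 0.993). For Cd59a an unnamed transcript, Gm2694 and H2-T24 were nearest (0.987 to 0.993). The lowest r between members was that of Cd55 with Cd59a, 0.16, and the highest that of C1s with C1ra, 0.99.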

How the data were processed

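The authors deposited 1 scanner table per array with linear intensity columns, background-subtracted and detrended within the array, and flags, per the file headers. Per the file headers the scanner software was Agilent Feature Extraction 10.7.3.1, and per the submitters' processing notes 9.5.3. The authors also deposited a table of log2 values, and 99.4% to 99.6% of its entries matched log2 of the processed intensity, less 1 constant per array, to within 0.001. Its column medians were -4.25, -4.17, -4.21, -4.13, -3.60, -4.03 and -3.87 in the order of arrays used in the text. Its direction and scale are therefore known, and genes were not centred.

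Outlier spots were dropped per array, spots of a probe averaged, and 11 probes with no spot left on an array were left out. The log2 processed signal minus the array's 75th percentile was used, with the brightest probe for each gene name. Differences were fitted with limma 3.58.1 in R 4.3.3 (lmFit and eBayes with a trend) over all 7 arrays with chamber as a term, leaving 2 residual degrees of freedom (1 with the interaction). A gene was tested if all arrays of 1 side were well above background, two-sided, with Benjamini-Hochberg adjustment over all genes and a threshold of 0.05. A dim group has only a bound: each of its arrays was given its own signal or, if larger, the faintest signal that array detected, and the bright mean was compared with the mean of these. The fit was tested on simulated data. The genes and lists were chosen with earlier results of these data known. Named are all 9 genes, the listed pathway genes that pass a test or are above background in every culture, and the 3 most alike genes of each. One listed gene is not reported here by name, and the heatmap of the list leaves it out along with 2 more genes. The number of arrays limits the precision. Probe positions are mm9, per the file headers, and promoters are from RefSeq on GRCm38.p6.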

Additional observations from a re-analysis of the deposited data

Results flagged for a closer look

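C1s was singled out because the interaction test called its postmortem difference dependent on chamber. Its SE was in effect pooled over genes of similar signal and does not carry the C1s gap between the fetal arrays, -2.62. The ventricular pair minus the atrial pair was -2.02 ± 0.62 on the log2 scale (limma, adjusted p = 0.0469), made up of 0.76 (atrial) and -1.26 (ventricular), with 1 array behind each level and the spread taken from the fetal pair alone, where C1s was not above background on 1 array. Its neighbour copy Gm5077 had the same order of cultures, with 4.72, 2.33, 4.10 and 3.64.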

How the results depend on the processing

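Of the alternatives run, the deposited log2 table, the robust prior, the stricter filter and the CMP arrays alone changed no call of a complement gene that could be tested. The stricter filter left 6 testable in adult against fetal heart, with 5 called. Genes called for the chamber dependence numbered 2 with normexp and 0 with quantile normalization, against 1, and Cfb there had 0.0746 and 0.0104 against -0.0598. Leaving out 1 array gave 0 to 2 called genes between sources, 0 to 3 between chambers and 6 to 8 against adult heart. Leave-one-out ranges that crossed 0 were, between sources, -0.10 to 0.65 for C4b and -1.26 to 0.76 for C1s, and between chambers, -0.59 to 1.27 for C3, -0.57 to 0.0531 for Serping1 and -0.15 to 0.0335 for Cd59a. Without the trend Cd59a against fetal heart had an adjusted p = 0.0544. The cause of these changes was not tested, except that leaving out a culture leaves the spread to the fetal pair.

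Over all genes, the count called between sources was 20, 47 with normexp, 53 with no filter, 0 without the trend or in CMP arrays alone, and 2 without a chamber term. Between chambers it was 0, 5 with normexp and 25 with no filter. Median scaling put the share of calls that were higher at 59.9% against fetal heart, 70.5% against adult heart and 34.7% for adult against fetal heart, with median differences of 0.23, 0.59 and -0.26. All arrays shared 1 slide and 1 scan, so a slide block was not run. No paired analysis was possible because the labels carry no replicate numbers, and chamber is already a term. Signal near background limits C1ra, C1s and C4b in fetal heart.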
